A study of Mus musculus with 8 samples.

Results

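The enzymes described here are 10 that carry glucose to lactate, chosen by gene symbol: Hk1 and Hk2 (hexokinases), Gpi1 (glucose phosphate isomerase), Pfkl, Pfkm and Pfkp (phosphofructokinases), Aldoa (aldolase), Pgk1 (phosphoglycerate kinase), Pkm (pyruvate kinase) and Ldha (lactate dehydrogenase). They are 10 of the 55401 genes listed for kidney RNA of 8 diabetic mice. Each library came from the kidney of 1 mouse, with 4 mice that received rFGF4, a recombinant human fibroblast growth factor 4 altered so that it does not drive cell division, and 4 that received vehicle. The question of the comparison is what rFGF4 changes in the transcripts of the diabetic kidney. The sample labels call the vehicle group a db/db model, mice without a working leptin receptor that become obese and diabetic, and give only the treatment for the rFGF4 group. The study's text describes the sequenced animals as made diabetic with streptozotocin, which destroys insulin-producing cells, and the data here do not decide between these models. In both of its models the mice were male and were injected intraperitoneally every other day, and all mice compared here were diabetic, so no healthy kidney is included. The mice were adult when treatment began, but the study's descriptions give different starting ages for streptozotocin mice, so the age of the sequenced mice is not settled here.

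Glycolysis splits glucose into pyruvate in the cytosol and yields ATP without oxygen. Hexokinase traps glucose in the cell, phosphofructokinase makes the committed step, phosphoglycerate kinase and pyruvate kinase form ATP, and lactate dehydrogenase interconverts pyruvate and lactate. In the kidney the distal nephron and the glomerulus use glucose as fuel, whereas the proximal tubule burns mainly fatty acids and lactate and makes glucose by the reverse route, gluconeogenesis. Most of these steps are encoded by several genes, whose products are called isozymes and differ between tissues. Several of the genes are known targets of the hypoxia-inducible factors, which can bind sites with the letters ACGTG.

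Values are FPKM, fragments mapped to a gene, scaled to the length of its exons and to the size of the library, so levels can be compared between genes per length. Changes are differences of log2(FPKM + 1), rFGF4 minus vehicle, fitted with limma over all 15150 genes that reached 0.5 FPKM in at least 4 of the mice. A gene was called where the change was 1.5-fold or more and its unadjusted p was under 0.05, the limits used in the study. The p-values measure the spread between these mice, and the smallest p of the two-sided exact permutation test with 4 mice against 4 is 0.0286. In RNA of kidney tissue, fewer cells of a type and less RNA per cell cannot be told apart. Whether the sequenced tissue was whole kidney or cortex is not settled here.

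Transcripts of the 10 enzymes did not differ between the groups beyond the spread between mice. None of the 10 was called, against 1.52% of all tested genes. None had an unadjusted p under 0.05 in limma, against 4.62% of all tested genes, and the ranges of the groups overlapped for all 10, whereas they did not overlap for 3.33% of all tested genes. Mean levels were higher with rFGF4 on the log2 scale for 5 enzymes and lower for 5, beside 10164 higher and 4986 lower of all tested genes. The differences ran from -0.38 for Pfkm to 0.41 for Hk2, with a median of -0.02, beside a median of 0.09 over all tested genes. With Benjamini-Hochberg adjustment over all tested genes, limma gave adjusted p-values of 0.918 to 0.995 for the 10 enzymes, and 0 genes of the whole table passed an adjusted p of 0.05 (700 had an unadjusted p under 0.05).

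**Figure D1:**
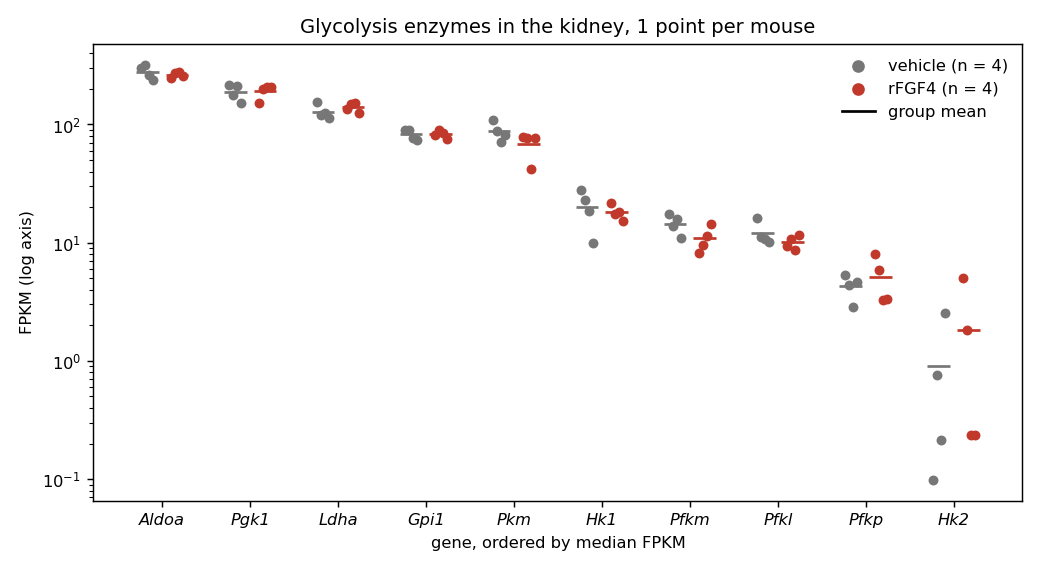
FPKM of the 10 enzymes (log axis), with 1 point per mouse, vehicle in grey and rFGF4 in red, and a bar at each group's mean (n = 4). The points of the groups overlap for every enzyme, levels fall from a median of 267 for Aldoa to 0.499 for Hk2, and Hk2 has by far the widest spread.

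The libraries were not equally alike. Summed FPKM ranged from 481321 to 552604 in vehicle mice and from 389407 to 529835 in rFGF4 mice, and mitochondrial transcripts made up 24.4% to 38.4% and 19.0% to 36.0% of these sums. Rank correlations between libraries lay between 0.836 and 0.960 over the tested genes. The libraries with the lowest limma array weights, a measure of how well a library fits its group, were rFGF4 mouse 1 (0.271) and vehicle mouse 5 (0.410), and values without them are given where they change a call or a direction. All 12 proximal tubule markers and all 5 markers of the thick ascending limb were above the floor of the table in every mouse. Markers of macrophages and endothelium were above it too, so this does not test the kidney label. The summed FPKM of the proximal tubule markers was 2107 to 3689 in vehicle mice, 2727 to 3391 in rFGF4 mice 2, 3 and 5 and 836 in rFGF4 mouse 1.

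The start regions of the genes show how unevenly the letters ACGTG, at which hypoxia-inducible factors can bind, are spread among the 10 enzymes. In windows of the 250 bases before a RefSeq transcript start, ACGTG was searched on both strands, and 6 of the 10 enzymes (8 of their 18 windows) held it, against 18.5% of 27025 genes and 16.6% of 32851 windows. A pair of Aldoa windows overlap and hold the same place, so it is counted in both. The 3 windows with at least 2 places, a density found in 1.95% of all windows, are printed here because they belong to the enzymes at the start (Hk2), middle (Pgk1) and end (Ldha) of the pathway. They run 5′ to 3′ in the direction of the gene (RefSeq, GRCm38.p6) and overlap no exon of the GENCODE annotation, although the Ldha window lies in an intron of its longer Ldha gene model. Capitals mark ACGTG on either strand.
Ldha, chr7:46845554-46845803, plus strand: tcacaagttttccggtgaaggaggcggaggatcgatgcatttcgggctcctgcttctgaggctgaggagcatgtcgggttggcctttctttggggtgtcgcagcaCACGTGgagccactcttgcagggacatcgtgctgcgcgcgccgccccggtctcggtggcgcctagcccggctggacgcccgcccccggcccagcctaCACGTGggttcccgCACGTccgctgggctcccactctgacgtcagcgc
Pgk1, chrX:106186850-106187099, plus strand: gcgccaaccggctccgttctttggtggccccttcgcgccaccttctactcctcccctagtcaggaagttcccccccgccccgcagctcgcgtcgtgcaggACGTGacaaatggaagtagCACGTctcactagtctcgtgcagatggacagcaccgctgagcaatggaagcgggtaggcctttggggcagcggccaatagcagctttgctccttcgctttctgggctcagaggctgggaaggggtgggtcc
Hk2, chr6:82774455-82774704, minus strand: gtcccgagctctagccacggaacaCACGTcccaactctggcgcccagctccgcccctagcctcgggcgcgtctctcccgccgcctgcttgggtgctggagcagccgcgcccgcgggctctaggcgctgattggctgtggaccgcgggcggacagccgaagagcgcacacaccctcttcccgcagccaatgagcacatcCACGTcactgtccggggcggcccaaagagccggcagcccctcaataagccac

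The Ldha window holds 3 places, of which 2 read CACGTG, letters that are the same on both strands and that overlap the shorter motif. This longer motif stands in 2 of the 18 windows of the enzymes, 1 of Ldha and 1 of Pfkm, and in 6.02% of all windows. The Pgk1 and Hk2 windows hold 2 places each. Windows of Hk1, Gpi1, Pfkl and Pfkp hold no ACGTG. Other forms of the site were not searched. A match of letters is a description of the sequence, not evidence of binding.

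The levels of the enzymes differed widely. Aldoa had the highest median over the 8 mice (267 FPKM), followed by Pgk1 (204), Ldha (130), Gpi1 (83.0), Pkm (77.5), Hk1 (18.3), Pfkm (12.7), Pfkl (10.7), Pfkp (4.51) and Hk2 (0.499). The ranges of neighbours did not overlap between Aldoa and Pgk1, Ldha and Gpi1, Pkm and Hk1, or Pfkl and Pfkp. Pgk1 exceeded Ldha and Pfkp exceeded Hk2 in 8 of 8 mice although their ranges overlapped. Hk1 exceeded Pfkm in 7 of 8 mice, Pfkm exceeded Pfkl in 6 of 8 and Gpi1 exceeded Pkm in 5 of 8, so these neighbours were not separated beyond the spread between mice. The hexokinases and phosphofructokinases, of the entry step and the committed step, thus had the lowest levels of RNA per length among the 10.

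Hk1, which encodes the hexokinase bound to mitochondria in most tissues (ENSMUSG00000037012, chr10:62268855-62379908, minus strand, GRCm38), measured 28.0, 23.1, 18.4 and 9.95 FPKM in vehicle mice 2, 3, 4 and 5 and 21.6, 17.4, 18.1 and 15.3 in rFGF4 mice 1, 2, 3 and 5. All rFGF4 mice lay inside the vehicle range, which was set by a high vehicle mouse 2 and a low vehicle mouse 5. The means were 19.9 ± 7.68 FPKM with vehicle and 18.1 ± 2.64 with rFGF4 (SD, n = 4 each), and the log2 difference was -0.05 with a standard error of 0.29 (95% interval -0.70 to 0.61, exact permutation p = 0.857). Without rFGF4 mouse 1 and vehicle mouse 5, a removal chosen after the data were seen, the difference was -0.41 (limma adjusted p = 0.753), with an unadjusted p just under 0.05 and short of a 1.5-fold change.

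Hk2, the insulin-regulated hexokinase of muscle and fat, which is also induced in proliferating and activated immune cells (ENSMUSG00000000628, chr6:82725025-82774454, minus strand), was the most variable of the 10. It measured 0.0982, 0.761, 0.215 and 2.55 FPKM in vehicle mice 2, 3, 4 and 5 and 5.07, 1.81, 0.237 and 0.236 in rFGF4 mice 1, 2, 3 and 5. In each group some mice were near the lower end and others several times higher, and the highest mouse exceeded the lowest by 51.6-fold. The means of 0.906 ± 1.13 and 1.84 ± 2.28 FPKM (SD, n = 4 each) gave a log2 difference of 0.41 with a standard error of 0.58 (95% interval -0.91 to 1.74, exact permutation p = 0.571). Without rFGF4 mouse 1 the difference was -0.06, and without vehicle mouse 5 it was 0.77. Because 1 was added to values near or under 1, this scale understates ratios of Hk2, and the log2 ratio of the group means was 1.02.

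The mice with high Hk2 were those with high macrophage markers. The summed FPKM of 8 macrophage markers (Adgre1, Cd68, Csf1r, C1qa, C1qb, C1qc, Cd14 and Lyz2) was 48.8, 351, 64.5 and 1841 in vehicle mice 2, 3, 4 and 5 and 1321, 479, 132 and 91.9 in rFGF4 mice 1, 2, 3 and 5. The 4 highest mice for this sum were rFGF4 mice 1 and 2 and vehicle mice 3 and 5, as for Hk2, and each of the 8 markers on its own had these same 4 mice highest. All 8 markers were above the floor in every mouse. The same 4 mice were also highest for the sum of 6 tubular injury markers, at 5434 and 3444 FPKM in vehicle mice 3 and 5 and 11163 and 3385 in rFGF4 mice 1 and 2, against 701 to 2520 in the others, and for the sum of 5 podocyte markers, at 76.0 to 90.5 against 46.0 to 74.3 FPKM. On their own, 2 of the 6 injury markers and 0 of the 5 podocyte markers had these 4 mice highest. Hk3, the hexokinase typical of myeloid cells, measured 0.169, 1.44, 0.0621 and 2.13 FPKM in vehicle mice 2, 3, 4 and 5 and 1.66, 0.660, 0.0463 and 0.149 in rFGF4 mice 1, 2, 3 and 5, again highest in these 4 mice. The summed proximal tubule markers ran the other way and were lowest in the same 4 mice, at 2107 and 2210 FPKM in vehicle mice 3 and 5 and 836 and 2727 in rFGF4 mice 1 and 2, against 3106 to 3689 in the others. The part of these cells in the Hk2 level was not tested.

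**Figure D2:**
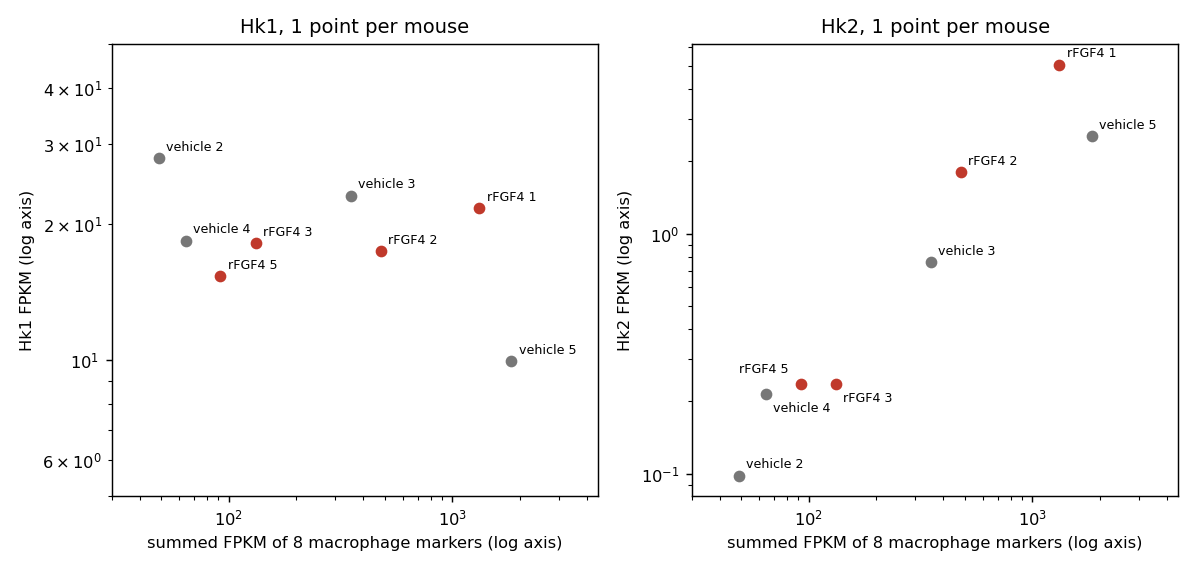
FPKM of Hk1 (left) and Hk2 (right) against the summed FPKM of 8 macrophage markers, with 1 point per mouse, vehicle in grey and rFGF4 in red, all axes logarithmic. Hk2 and the marker sum are high in the same 4 mice, from both groups, whereas Hk1 is lowest in vehicle mouse 5, which has the highest marker sum (1841).

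Hk1 made up most of the hexokinase RNA per length in every mouse. Of the summed FPKM of Hk1 and Hk2, Hk2 accounted for 0.350%, 3.19%, 1.15% and 20.4% in vehicle mice 2, 3, 4 and 5 and for 19.0%, 9.42%, 1.29% and 1.52% in rFGF4 mice 1, 2, 3 and 5. The ratio of Hk1 to Hk2 ranged from 3.90 in vehicle mouse 5 to 285 in vehicle mouse 2, so the mice of 1 group spanned the whole range. The widest difference between mice in the makeup of the hexokinase step lay within the vehicle group. Shares are descriptions and were not tested.

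Gpi1, which turns glucose 6-phosphate into fructose 6-phosphate (ENSMUSG00000036427, chr7:34201330-34230336, minus strand), was the steadiest of the 10. It measured 89.2, 89.8, 77.5 and 73.7 FPKM in vehicle mice 2, 3, 4 and 5 and 81.3, 89.4, 84.8 and 75.9 in rFGF4 mice 1, 2, 3 and 5. The rFGF4 values all lay inside the vehicle range, and the highest mouse exceeded the lowest by 1.22-fold. Means were 82.5 ± 8.16 and 82.8 ± 5.72 FPKM (SD, n = 4 each), with a log2 difference of 0.01, a standard error of 0.12 and a 95% interval of -0.26 to 0.28 (exact permutation p = 0.971).

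The phosphofructokinase step is built from 3 subunit genes, named for liver (Pfkl), muscle (Pfkm) and platelet (Pfkp), whose products join into tetramers. Pfkl (ENSMUSG00000020277, chr10:77986947-78010083, minus strand) measured 16.2, 11.1, 10.8 and 10.1 FPKM in vehicle mice 2, 3, 4 and 5 and 9.37, 10.7, 8.71 and 11.7 in rFGF4 mice 1, 2, 3 and 5. Vehicle mouse 2 stood above the rest, and 2 rFGF4 mice were below every vehicle mouse. The means of 12.0 ± 2.83 and 10.1 ± 1.35 FPKM (SD, n = 4 each) gave a log2 difference of -0.22 with a standard error of 0.17 (95% interval -0.60 to 0.17, exact permutation p = 0.257).

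Pfkm (ENSMUSG00000033065, chr15:98092589-98132451, plus strand) came nearest to a difference. It measured 17.4, 13.9, 15.8 and 10.9 FPKM in vehicle mice 2, 3, 4 and 5 and 8.25, 9.65, 11.4 and 14.4 in rFGF4 mice 1, 2, 3 and 5. All 4 rFGF4 mice were below the vehicle mean and 2 were below every vehicle mouse, but rFGF4 mouse 5 was above 2 vehicle mice. Means were 14.5 ± 2.81 and 10.9 ± 2.65 FPKM (SD, n = 4 each), the log2 difference was -0.38 with a standard error of 0.20 (95% interval -0.84 to 0.07), and the exact permutation p was 0.143. The unadjusted p of limma fell under 0.05 without rFGF4 mouse 5 (difference -0.51), without vehicle mouse 5 (-0.51) and with array weights (-0.47), in each case short of a 1.5-fold change. Exons of Pfkm overlap those of Senp1 on the other strand and of Gm26513. Exons of Hk1, Gpi1, Pfkp and Aldoa also overlap a gene on the other strand (Hk1os, Gm26762, Pitrm1 and Fam57b), and those of Pkm overlap Gm49759 on its own strand. Whether the counting used strand is not given in the sources used here, so part of the values of these 6 enzymes may belong to the overlapping genes.

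Pfkp (ENSMUSG00000021196, chr13:6579768-6648777, minus strand) measured 5.32, 4.41, 2.88 and 4.61 FPKM in vehicle mice 2, 3, 4 and 5 and 7.99, 5.88, 3.25 and 3.37 in rFGF4 mice 1, 2, 3 and 5. The rFGF4 group was split, with mice 1 and 2 above every vehicle mouse and mice 3 and 5 in the lower part of the vehicle range. The means of 4.30 ± 1.03 and 5.12 ± 2.27 FPKM (SD, n = 4 each) gave a log2 difference of 0.16 with a standard error of 0.28 (95% interval -0.47 to 0.79, exact permutation p = 0.657), and without rFGF4 mouse 1 the difference was -0.05.

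The makeup of the phosphofructokinase step followed these values. Pfkl held a nearly constant 36.5% to 41.7% of the summed FPKM of the 3 subunit genes in the 8 mice. Pfkp held 13.7%, 15.0%, 9.77% and 18.0% in vehicle mice 2, 3, 4 and 5 and 31.2%, 22.4%, 13.9% and 11.4% in rFGF4 mice 1, 2, 3 and 5. Pfkm held 44.6%, 47.2%, 53.7% and 42.6% in the same vehicle mice and 32.2%, 36.8%, 48.9% and 48.8% in the rFGF4 mice. The Pfkp share was highest in rFGF4 mice 1 and 2 and vehicle mouse 5, which were also the 3 mice with the highest macrophage marker sums, and the Pfkm share was lowest in them. The sum of 7 lymphocyte markers was highest in the same mice, at 18.2 and 7.10 FPKM in rFGF4 mice 1 and 2 and 79.3 in vehicle mouse 5. The part of these cells in the shares was not tested.

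**Figure D3:**
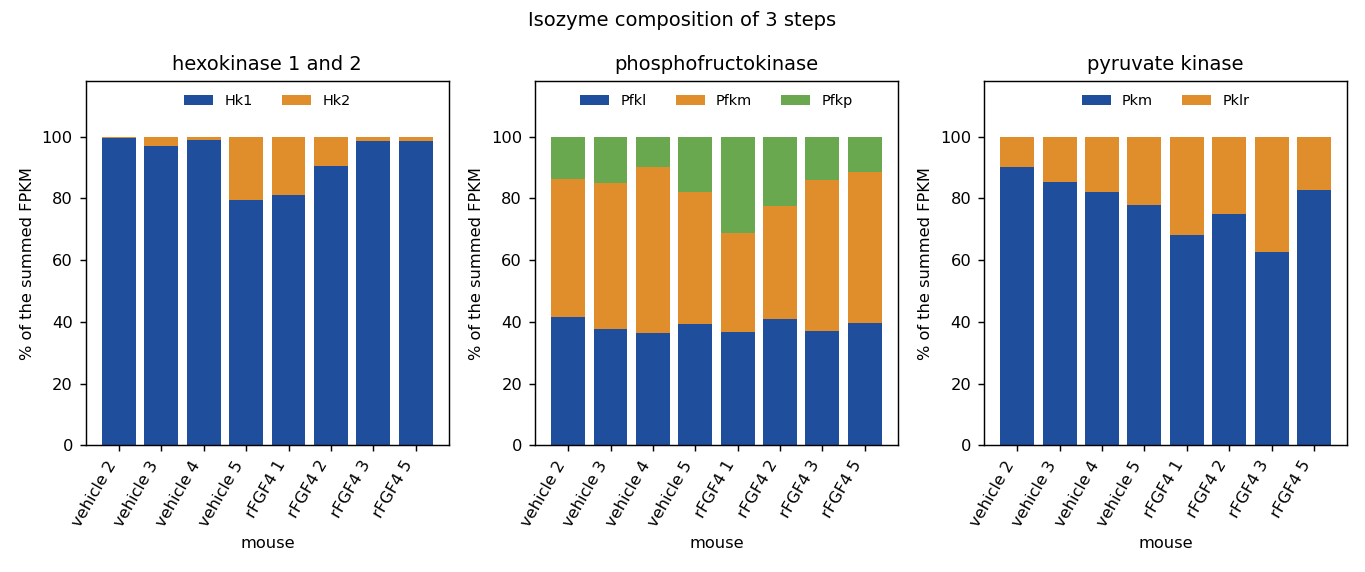
Share of each isozyme gene in the summed FPKM of its step, in percent, as 1 stacked bar per mouse for hexokinase 1 and 2, phosphofructokinase and pyruvate kinase. Hk2 reaches 20.4% in vehicle mouse 5 and 19.0% in rFGF4 mouse 1, Pfkp reaches 31.2% in rFGF4 mouse 1, and Pklr ranges from 9.91% to 37.3%.

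Aldoa, the aldolase of muscle and of most proliferating cells, which splits fructose 1,6-bisphosphate (ENSMUSG00000030695, chr7:126795234-126800751, minus strand), measured 299, 320, 260 and 239 FPKM in vehicle mice 2, 3, 4 and 5 and 246, 273, 275 and 259 in rFGF4 mice 1, 2, 3 and 5. All rFGF4 values lay inside the vehicle range. Means were 279 ± 36.8 and 264 ± 13.7 FPKM (SD, n = 4 each), with a log2 difference of -0.08, a standard error of 0.14 and a 95% interval of -0.40 to 0.24 (exact permutation p = 0.429). A further gene identifier in the table carries the same symbol (ENSMUSG00000114515, chr7:126800790-126809108) at no more than 0.309 FPKM and was not tested, so the 10 symbols stand for 11 entries of which 10 were tested.

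Pgk1, which forms the first ATP of the pathway (ENSMUSG00000062070, chrX:106187100-106203699, plus strand), measured 217, 178, 212 and 152 FPKM in vehicle mice 2, 3, 4 and 5 and 152, 201, 209 and 208 in rFGF4 mice 1, 2, 3 and 5. The low mice were vehicle mouse 5 and rFGF4 mouse 1, at almost the same level. Means were 190 ± 30.5 and 192 ± 27.1 FPKM (SD, n = 4 each), the log2 difference was 0.02 with a standard error of 0.17 (95% interval -0.37 to 0.42, exact permutation p = 0.971), and it was 0.03 without these 2 mice.

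Pkm, whose alternative exons give the pyruvate kinases M1 and M2 (ENSMUSG00000032294, chr9:59656368-59679375, plus strand), measured 110, 87.7, 70.9 and 80.8 FPKM in vehicle mice 2, 3, 4 and 5 and 78.4, 76.4, 42.3 and 76.6 in rFGF4 mice 1, 2, 3 and 5. The rFGF4 mice were all below the vehicle mean, but 3 of them lay inside the vehicle range and only rFGF4 mouse 3 was below it. The means of 87.3 ± 16.6 and 68.4 ± 17.4 FPKM (SD, n = 4 each) gave a log2 difference of -0.37 with a standard error of 0.23 (95% interval -0.90 to 0.16, exact permutation p = 0.200), which was -0.16 without rFGF4 mouse 3. The values are per gene, so the M1 and M2 forms were not separated.

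Ldha, which favours the step from pyruvate to lactate (ENSMUSG00000063229, chr7:46841475-46855627, plus strand), measured 156, 120, 126 and 113 FPKM in vehicle mice 2, 3, 4 and 5 and 134, 150, 150 and 126 in rFGF4 mice 1, 2, 3 and 5. Vehicle mouse 2 was the highest of all, and the 4 rFGF4 mice lay between it and the other vehicle mice. Means were 129 ± 18.9 and 140 ± 12.2 FPKM (SD, n = 4 each), with a log2 difference of 0.13, a standard error of 0.14 and a 95% interval of -0.19 to 0.45 (exact permutation p = 0.286).

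The precision differed between the enzymes. The 95% intervals of Gpi1 (0.835-fold to 1.21-fold), Aldoa (0.760-fold to 1.18-fold), Pgk1 (0.775-fold to 1.34-fold) and Ldha (0.877-fold to 1.37-fold) lay within a 1.5-fold change in either direction. With a common median ratio those of Aldoa (0.623-fold to 1.20-fold) and Pgk1 (0.607-fold to 1.41-fold) reached past a 1.5-fold fall, and without mitochondrial genes that of Ldha (0.914-fold to 1.51-fold) just past a 1.5-fold rise. Those of Pfkl (0.659-fold to 1.13-fold), Pfkm (0.560-fold to 1.05-fold) and Pkm (0.535-fold to 1.12-fold) included a fall by that factor, and those of Hk1 (0.615-fold to 1.52-fold) and Hk2 (0.531-fold to 3.33-fold, or 0.287-fold to 9.77-fold with a pseudocount of 0.1) a change of that size either way. The interval of Pfkp, 0.721-fold to 1.73-fold, included a 1.5-fold rise.

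**Figure D4:**
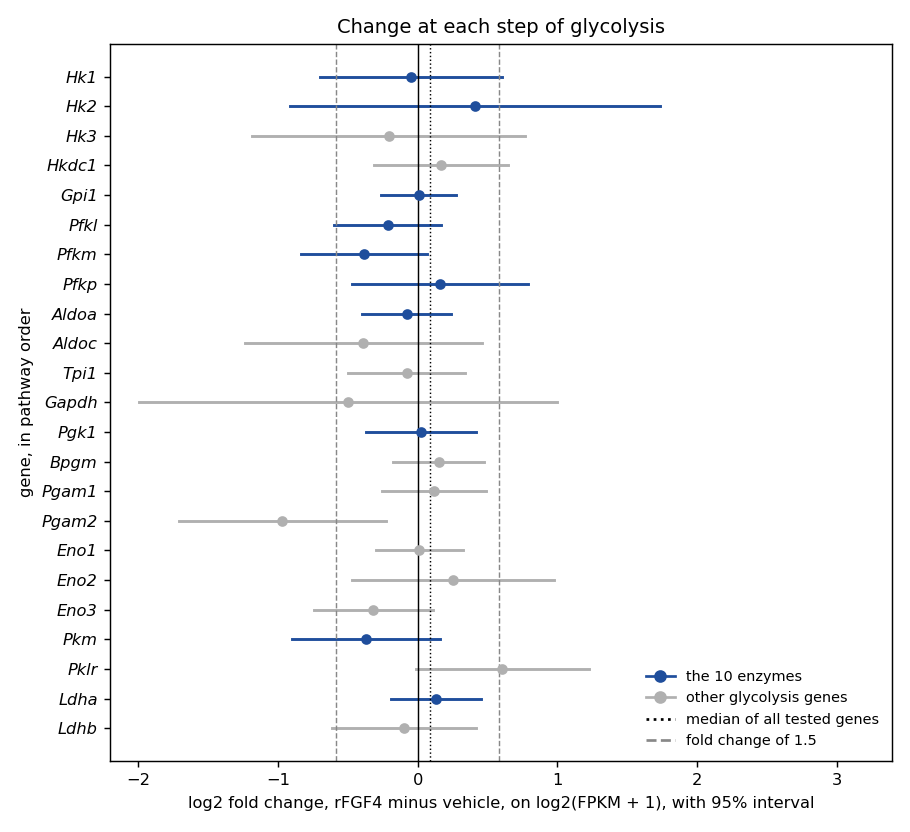
Log2 difference of FPKM + 1, rFGF4 minus vehicle, with its 95% interval, for the 10 enzymes (blue) and other tested glycolysis genes (grey) in pathway order. The intervals of all 10 enzymes include 0, the dotted line marks the median of all tested genes (0.09), and among the grey genes the interval of Pgam2 lies wholly below 0.

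The mice did not order in the same way for all 10 enzymes. Vehicle mouse 2 was the highest mouse for 6 of them, vehicle mouse 3 for 2 (Gpi1 and Aldoa) and rFGF4 mouse 1 for 2 (Hk2 and Pfkp). Vehicle mouse 5 was the lowest for 5 (Hk1, Gpi1, Aldoa, Pgk1 and Ldha) and rFGF4 mouse 3 for 2 (Pfkl and Pkm). The summed FPKM of the 10 enzymes was lowest in vehicle mouse 5 (696) and highest in vehicle mouse 2 (938), so the extremes of the sum were both vehicle mice. Hk2 ran against the other enzymes in vehicle mouse 2, which had the lowest Hk2 of the 8.

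**Figure D5:**
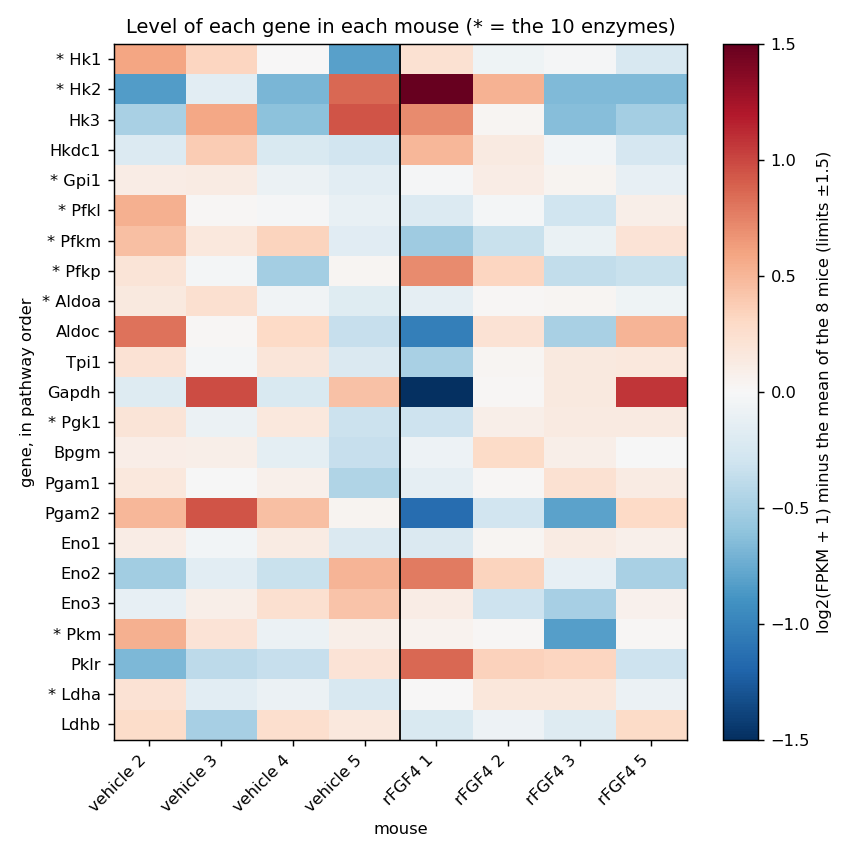
Log2(FPKM + 1) of each gene in each mouse minus its mean over the 8 mice, in pathway order, with the 10 enzymes starred and values beyond 1.5 in either direction shown in the end colours. Vehicle mice stand left of the line and rFGF4 mice right, and the starred genes show no block of one colour on either side.

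At the lactate dehydrogenase step the kidney expressed a partner isozyme outside the 10 far more strongly. Ldhb, which favours the step from lactate to pyruvate, measured 434 to 740 FPKM with vehicle and 523 to 749 with rFGF4, or 3.55 to 6.07 times Ldha. No difference between the groups was detected, with a log2 difference of -0.10 (exact permutation p = 0.657). Ldhb, Pklr, Hk3 and Gapdh were singled out after their values were seen.

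Pyruvate kinase was the reverse case, with Pkm above its partner in every mouse. Pklr, the pyruvate kinase of liver, red cells and proximal tubule, measured 12.1, 14.9, 15.5 and 23.1 FPKM in vehicle mice 2, 3, 4 and 5 and 36.9, 25.6, 25.2 and 15.9 in rFGF4 mice 1, 2, 3 and 5. In the rFGF4 group 3 mice exceeded every vehicle mouse, and mouse 5 was above 3 vehicle mice. The log2 difference was 0.61 with a standard error of 0.27 (exact permutation p = 0.0571). Pklr was not called, since its unadjusted p in limma was 0.0533. The difference was 0.42 without rFGF4 mouse 1, and Pklr was called without vehicle mouse 5 (0.78), without rFGF4 mouse 5 (0.81), without rFGF4 mouse 1 and vehicle mouse 5 (0.59), with array weights (0.66) and without mitochondrial genes (0.73). Pklr held 9.91% to 22.2% of the pyruvate kinase RNA per length in vehicle mice and 17.2% to 37.3% in rFGF4 mice. The 8 immediate early genes, which respond quickly to stress and handling, summed to 22.2, 53.0, 22.1 and 104 FPKM in vehicle mice 2, 3, 4 and 5 and to 150, 151, 121 and 26.0 in rFGF4 mice 1, 2, 3 and 5, with the same 4 highest mice as Pklr, and their part in its level was not tested. Exons of Pklr overlap those of a neighbouring gene, Hcn3.

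Of 19 other genes of the glycolytic steps, 14 were tested, of which 7 were higher and 7 lower with rFGF4 and 1 was called. That gene was Pgam2, the phosphoglycerate mutase known from muscle, at 46.0, 63.3, 44.7 and 33.2 FPKM in vehicle mice 2, 3, 4 and 5 and 14.1, 26.3, 18.0 and 40.1 in rFGF4 mice 1, 2, 3 and 5. The groups overlapped through rFGF4 mouse 5, and the log2 difference was -0.97 with a standard error of 0.32 (exact permutation p = 0.0571). In limma its unadjusted p was 0.0165 and its adjusted p 0.918. The call was lost with a block for mouse numbers (-0.76). The 9 skeletal muscle markers summed to 0.375 to 3.08 FPKM in the 8 mice. The 5 red blood cell markers summed to 3793, 4325, 2700 and 1139 FPKM in vehicle mice 2, 3, 4 and 5 and to 120, 1556, 437 and 2657 in rFGF4 mice 1, 2, 3 and 5, with the same 4 highest mice as Pgam2 and, as for Pgam2, rFGF4 mice 1 and 3 lowest. The 5 adipose tissue markers summed to 11.0 to 16.8 FPKM in vehicle mice and to 6.07 to 13.4 in rFGF4 mice, again with the same 4 highest mice as Pgam2. Of these 5 markers, only 1 was expressed highly enough to be tested, and 4 were at the floor in at least 1 mouse. The part of red blood, muscle or fat cells in the Pgam2 level was not tested. Gapdh, at 8.44 to 92.8 FPKM, has many near-identical pseudogene copies among which fragments can be split, so its level is uncertain.

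Genes that decide the fate of pyruvate and lactate gave 8 higher and 9 lower of 17 tested, with a median log2 difference of -0.00. The 1 called gene among them was Pdk4, the kinase that shuts pyruvate out of the mitochondrial pyruvate dehydrogenase complex. It measured 3.13, 15.7, 8.82 and 4.86 FPKM in vehicle mice 2, 3, 4 and 5 and 20.3, 30.8, 16.1 and 10.8 in rFGF4 mice 1, 2, 3 and 5. Only vehicle mouse 3 reached the range of the rFGF4 mice, and the log2 difference was 1.28 with a standard error of 0.46 (exact permutation p = 0.0571). In limma its unadjusted p was 0.0232 and its adjusted p 0.918. The call was lost when vehicle mouse 2 (difference 0.96), vehicle mouse 5 (1.13), rFGF4 mouse 1 (1.23) or rFGF4 mouse 2 (1.04) was left out, and when rFGF4 mouse 1 and vehicle mouse 5 were both left out (1.08). It was also lost with a block for mouse numbers (1.33).

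The regulators of the early steps, which set the level of fructose 2,6-bisphosphate, gave 3 higher and 1 lower of 4 tested and 0 called, with log2 differences of -0.19 for Pfkfb3 and 0.30 for Pfkfb4. The entry of other sugars and of glycogen gave 8 higher and 6 lower of 14 and 0 called, with -0.09 for Khk (ketohexokinase) and 0.28 for Tkfc (triokinase). Gluconeogenesis gave 5 higher and 3 lower of 8 and 0 called, with 0.59 for Pck1 (phosphoenolpyruvate carboxykinase, standard error 0.44) and -0.01 for Fbp1. In these 3 lists no gene had an unadjusted p under 0.05 in limma. Pck1 measured 771, 848, 1379 and 904 FPKM in vehicle mice 2, 3, 4 and 5 and 608, 1710, 2641 and 1512 in rFGF4 mice 1, 2, 3 and 5, so that 3 rFGF4 mice were above every vehicle mouse and rFGF4 mouse 1, the mouse with the low proximal tubule markers, was below them all. Without rFGF4 mouse 1 its difference was 0.997 and it was called, as it was with array weights (0.84) and without rFGF4 mouse 1 and vehicle mouse 5 (0.97). In each of these settings 2 of the 8 gluconeogenesis genes were called, against 202, 490 and 273 of all 15150 tested genes in the same order. The part of the proximal tubule cells in these values was not tested. Taking the 6 lists around the 10 enzymes as one, 72 of 79 genes were tested, 39 were higher and 33 lower, and 2 were called, or 2.78% against the 1.52% of all tested genes. A further 2 genes had an unadjusted p under 0.05, both of the hypoxia-inducible list, which made 4 of 72 (5.56%) against 4.62% of all tested genes.

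Hypoxia-inducible genes other than the 10 enzymes did not move one way. Of 16 tested, 8 were higher and 8 lower with rFGF4, the median log2 difference was 0.00, and 0 were called with 2 (12.5%) at an unadjusted p under 0.05 in limma, against 4.62% of all tested genes. Egln3, a prolyl hydroxylase that marks the hypoxia-inducible factors for breakdown and is itself induced by them, measured 11.5, 8.61, 11.7 and 10.0 FPKM in vehicle mice 2, 3, 4 and 5 and 13.5, 19.8, 18.6 and 13.4 in rFGF4 mice 1, 2, 3 and 5. Every rFGF4 mouse was above every vehicle mouse, which gave the smallest exact permutation p the design allows, 0.0286. Of the 72 tested genes of the lists around the enzymes, 1 had groups that did not overlap, against 3.33% of all tested genes. The log2 difference of Egln3 was 0.58 with a standard error of 0.17 (limma adjusted p = 0.918), just short of a 1.5-fold change. Over the alternatives the difference ranged from 0.46 with a common median ratio to 0.72, and Egln3 was called with a pseudocount of 0.1 (0.62), without mitochondrial genes (0.71), with array weights (0.64), without vehicle mouse 2 (0.63) or 4 (0.64), without rFGF4 mouse 1 (0.66) or 5 (0.67) and without rFGF4 mouse 1 and vehicle mouse 5 (0.65). With the common median ratio its unadjusted p rose above 0.05 and the 95% interval, 0.977-fold to 1.93-fold, included no change. The level of Ankrd37 was 1.94, 1.72, 0.825 and 1.03 FPKM in vehicle mice 2, 3, 4 and 5 and 0.867, 0.695, 0.396 and 0.748 in rFGF4 mice 1, 2, 3 and 5, with a log2 difference of -0.49, a standard error of 0.18 and an exact permutation p of 0.0571. Its exons overlap those of Lrp2bp and Ufsp2, and it was called with a pseudocount of 0.1 (-0.90), without mitochondrial genes (-0.66), without vehicle mouse 4 (-0.60) and without rFGF4 mouse 1 and vehicle mouse 5 (-0.61). Its unadjusted p rose above 0.05 when vehicle mouse 2 or 3 or rFGF4 mouse 2 or 3 was left out. Among the enzymes whose start regions are printed above, the log2 differences were 0.13 for Ldha, 0.02 for Pgk1 and 0.41 for Hk2, all with intervals that included 0. The other enzymes with ACGTG in a window were lower, with -0.38 for Pfkm, -0.37 for Pkm and -0.08 for Aldoa, and their intervals also included 0.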

How the data were processed

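Kidney poly(A) RNA of 8 mice was sequenced, and the deposited table gives the FPKM of 55401 genes per library, which the authors calculated with StringTie after merging transcripts with gffcompare. The submitters' processing notes name Bowtie 0.12.2, HISAT2 2.0, StringTie 1.3.0 and the build mm8, with no roles or settings, whereas 99.5% of the gene identifiers are in GENCODE M21 (GRCm38), from which positions were taken. Columns holding the authors' own fold changes, p-values and q-values were not used. No counts are given, so depth is unknown, and 0.0001, found in 57.5% of values, was taken as a floor. The 15150 genes that reached 0.5 FPKM in at least 4 libraries entered limma as log2(FPKM + 1) values (version 3.58.1, R 4.3.3) with its trend option, p-values being adjusted by the Benjamini-Hochberg method, after the procedure was tested on simulated data. The study's edgeR test needs counts and was not run. Single genes also had two-sided exact permutation tests over all 70 arrangements. The 10 enzymes, the lists and the marker genes were chosen with earlier results of these data known. From each list, the genes with an unadjusted p under 0.05 are named, or else the 2 with the highest mean FPKM, beside genes singled out once values were known, and 1 gene of the lists, counted with them, is not reported here. Alternatives were another pseudocount, no filter, a common median ratio, rescaling without mitochondrial genes, array weights, each mouse left out and a block for mouse numbers. A fit without the trend and the removal of rFGF4 mouse 1 and vehicle mouse 5 together were added after seeing the data. Python 3.11.15 and matplotlib 3.10.9 drew the figures.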

Additional observations from a re-analysis of the deposited data

Results flagged for a closer look

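In 8 of 64 groups of 4 mice examined, 1 mouse stood far from the other 3, judged by its gap to the nearest mouse divided by the range of the group and Dixon's limit for 4 values. Chance flags about 1 in 20 groups, or 3.2 here. Among the 10 enzymes, Pgk1 was low in rFGF4 mouse 1 (152 FPKM against 201 to 209, ratio 0.887), Pkm was low in rFGF4 mouse 3 (42.3 against 76.4 to 78.4, ratio 0.957), and the share of Hk2 in Hk1 and Hk2 was high in vehicle mouse 5 (20.4% against 0.350% to 3.19%, ratio 0.858). Among the genes around them, Khk (80.4 against 250 to 283 FPKM, ratio 0.900) and Fbp1 (237 against 551 to 652, ratio 0.833) were low in rFGF4 mouse 1, and Ldhb was low in vehicle mouse 3 (434 against 684 to 740, ratio 0.852). The summed proximal tubule markers were low in rFGF4 mouse 1 (836 against 2727 to 3391 FPKM, ratio 0.844), and the summed lymphocyte markers were high in vehicle mouse 5 (79.3 against 2.93 to 4.20, ratio 0.907).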

How the results depend on the processing

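The number of the 10 enzymes called was 0 under every alternative run, and in 170 comparisons of single enzymes with an alternative 145 kept their direction and 25 changed sign, all of them not past the threshold. The median of the 10 log2 differences, -0.02, was -0.15 with a common median ratio and -0.17 with the replicate block, and -0.11 to 0.07 with 1 mouse left out. The common median ratio shifted the median of all genes by -0.10. Signs changed for Hk1 (0.0522 without mitochondrial genes, -0.33 to 0.14 with 1 mouse left out), Hk2 (-0.0640 to 0.77 with 1 left out), Gpi1 (-0.13 with the common median ratio, -0.0359 without both added mice, -0.0442 to 0.0492 with 1 left out), Pfkp (-0.0178 without both, -0.0519 to 0.31 with 1 left out), Aldoa (0.0230 without mitochondrial genes), Pgk1 (-0.11 with the common median ratio, -0.0015 with array weights, -0.0774 to 0.133 with 1 left out) and Ldha (-0.0035 with the common median ratio). Mice with the same number did not deviate together (correlations -0.23, -0.16 and -0.39 for numbers 2, 3 and 5), so the numbers do not pair the mice. Only these numbers occur in both groups. The replicate block therefore takes its differences from mice 2, 3 and 5 of each group, and rFGF4 mouse 1 and vehicle mouse 4 add nothing to them. Under the replicate block Hk2 was -0.23, Gpi1 -0.0124, Pfkp -0.19, Khk 0.43, Fbp1 0.52 and Ldhb 0.0274, the calls of Pgam2 and Pdk4 were lost, Pck1 (1.18), Tkfc (0.59), Egln3 (0.72) and Ankrd37 (-0.66) were called, and the intervals of Aldoa (from 0.654-fold), Pgk1 (to 1.68-fold) and Ldha (to 1.55-fold) passed a 1.5-fold change. Khk was 0.0102 without mitochondrial genes, 0.15 with array weights, 0.25 without both mice and -0.26 to 0.34 with 1 left out. Fbp1 was 0.0910, 0.0664, 0.25 and -0.15 to 0.33 in the same order. Ldhb was 0.0017 without mitochondrial genes. Of the genes around the 10 enzymes, 2 were called, against 4 with a pseudocount of 0.1, 5 without mitochondrial genes, 7 with array weights, 6 with the replicate block, 6 without both mice, and 1 to 6 with 1 left out. Of all tested genes 231 were called (165 higher and 66 lower), against 173 with a common median ratio (91 higher and 82 lower), 348 with a pseudocount of 0.1, 459 without mitochondrial genes (396 higher and 63 lower), 490 with array weights, and 187 to 575 with 1 left out, the highest without rFGF4 mouse 5 (575) and vehicle mouse 5 (432). This number was 262 with the replicate block and 273 without both mice. The removal of both mice, rFGF4 mouse 1 and vehicle mouse 5, was chosen after seeing the data. The cause of these changes was not tested. With no counts, the counting error of low genes such as Hk2 is unknown.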
